A study of Homo sapiens with 4 samples.

Results

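Mucins are large glycoproteins whose serine- and threonine-rich stretches carry dense O-linked sugar chains. Gel-forming mucins are secreted and build mucus, whereas membrane mucins are anchored at the apical surface of epithelial cells, where their extracellular part forms a barrier and their cytoplasmic tail takes part in signaling. In pancreatic ductal adenocarcinoma, mucins are widely used as tumor markers, among them MUC1, MUC4, MUC5AC and MUC16, which carries the CA125 antigen. The expression of 10 mucin genes, picked by name out of 58174 genes with an identifier, was examined in RNA sequencing data of 4 libraries. The secreted mucins were MUC2, MUC5AC, MUC5B and MUC6, and the membrane mucins were MUC1, MUC4, MUC13, MUC16, MUC17 and MUC20.

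The libraries came from SW1990 and PANC-1, established human pancreatic cancer cell lines, each sequenced once unirradiated and once after X-ray treatment with 10 Gy. Both lines were used at passage 14 to 16, SW1990 in RPMI medium and PANC-1 in DMEM, each with 10% FBS, so that line and medium cannot be told apart. The time between radiation and RNA collection is not given in the sources used here. Counts summed to 17939210 for unirradiated SW1990 cells, 18388969 for irradiated SW1990 cells, 23451153 for unirradiated PANC-1 cells and 20154644 for irradiated PANC-1 cells. The floor of 3 counts, the most that a gene at 0 counts may hold, corresponded to between 0.14 and 0.158 CPM (the count relative to the TMM-scaled library size). Differences between 2 libraries have no replicate check, and the intervals given with them are exact Clopper-Pearson intervals at 95% that cover counting error only.

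The lines differed in the markers that bear on epithelial mucins. SW1990 cells carried the epithelial adhesion genes CDH1 and EPCAM at high level, with EPCAM at 7348 counts unirradiated and 7552 irradiated, against 108 and 113 in PANC-1 cells. VIM, the intermediate filament of mesenchymal-type cells, was at 17 and 0 counts in SW1990 cells and at 82406 and 75166 in PANC-1 cells. Of the 9 epithelial markers examined, 0 were at 0 counts in any library, and KRT8 was the most abundant in each. In the fit described later, 7 of these 9 passed as higher in SW1990, and of 8 mesenchymal-type markers 6 passed as higher in PANC-1 and 2, ACTA2 and PDGFRB, as higher in SW1990. Over all genes of that fit the shares were 21.4% higher in SW1990 and 22.2% higher in PANC-1. The 9 acinar and endocrine markers summed to 12, 9, 0 and 0 counts in the 4 libraries, with PRSS1 the most abundant in SW1990 cells and with INS, GCG, CPA1 and PNLIP at 0 counts in all 4. The 9 markers of blood and vessel cells summed to 62 and 108 counts in SW1990 cells and 974 and 590 in PANC-1 cells, where CD68 made up most of them with 967 and 583. The part of these cell-state differences in the mucin levels was not tested.

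Upstream sequences are shown for 4 genes whose levels differed between the lines: MUC1, which was higher in PANC-1 cells, and MUC2, MUC4 and MUC13, which were higher in SW1990 cells. Each is the 250 bases before a start of transcription given by RefSeq (GRCh38.p14), printed along the strand of the gene. Capitals mark letters searched on both strands after motifs of factors of mucin-secreting epithelium and of general promoters: the CDX motif TTTATG, the GATA motif GATAA, the FOXA motif TGTTTAC, the GC box GGGCGG, the ZEB E-box CACCTG and the TATA box TATAAA. The sequences lie at chr1:155192916-155193165 on the minus strand for MUC1, chr11:1074624-1074873 on the plus strand for MUC2, chr3:195811930-195812179 on the minus strand for MUC4 and chr3:124934752-124935001 on the minus strand for MUC13.
MUC1: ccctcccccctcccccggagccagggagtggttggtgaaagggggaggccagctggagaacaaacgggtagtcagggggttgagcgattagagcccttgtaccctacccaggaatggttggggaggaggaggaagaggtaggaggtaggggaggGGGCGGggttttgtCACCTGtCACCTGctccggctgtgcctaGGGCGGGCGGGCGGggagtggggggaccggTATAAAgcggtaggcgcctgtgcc
MUC2: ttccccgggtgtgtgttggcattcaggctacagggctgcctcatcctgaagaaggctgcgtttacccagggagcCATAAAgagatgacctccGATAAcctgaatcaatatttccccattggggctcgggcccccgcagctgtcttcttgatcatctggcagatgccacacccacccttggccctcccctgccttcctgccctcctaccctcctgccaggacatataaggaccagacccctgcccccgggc
MUC4: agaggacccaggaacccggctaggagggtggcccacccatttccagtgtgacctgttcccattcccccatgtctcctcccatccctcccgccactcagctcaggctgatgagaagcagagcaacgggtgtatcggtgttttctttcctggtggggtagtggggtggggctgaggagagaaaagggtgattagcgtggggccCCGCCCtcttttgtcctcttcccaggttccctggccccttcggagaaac
MUC13: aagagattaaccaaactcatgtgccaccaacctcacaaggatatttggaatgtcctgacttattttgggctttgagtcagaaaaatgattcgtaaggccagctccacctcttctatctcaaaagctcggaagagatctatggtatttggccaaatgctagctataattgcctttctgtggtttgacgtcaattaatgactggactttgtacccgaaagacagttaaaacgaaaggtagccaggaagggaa

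The MUC1 window held 4 GC boxes, 3 of them overlapping in one run, 2 ZEB E-boxes side by side and a TATA box whose first base lay 24 bases before the start. RefSeq gives a second start for MUC1, whose window held the same motifs, with the TATA box at 30 bases. The MUC2 window held a CDX motif on the reverse strand, 176 bases before the start, and a GATA motif at 158 bases. The MUC4 window held a GC box on the reverse strand at 49 bases, and the MUC13 window held none of the motifs searched. The FOXA motif was in none of the 4. Among all 34788 windows of the same length, 42.6% held the GC box, 17.5% the ZEB E-box, 10.8% the TATA box, 20.5% the GATA motif, 9.65% the CDX motif and 2.98% the FOXA motif. The MUC13 window was the poorest in G and C of the 4, at 41.6% against a median of 58% for all windows. The MUC1 window had 66%, MUC2 59.6% and MUC4 60.4%. These matches are letters in a window and say nothing of binding. Windows were found for 6 of the 10 genes. Of the other 2, MUC17 held 3 GATA motifs in its window, and the MUC16 windows lay outside the gene model used for counting. The MUC4 and MUC13 windows lie inside their counted gene models, which begin farther upstream, so that they precede the RefSeq starts but not the starts of those models.

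Among the 10 genes, SW1990 cells held transcripts of several mucins and PANC-1 cells held mostly MUC1. Summed over the 10 genes, SW1990 cells had 3518 mucin counts without and 4537 with radiation, and PANC-1 cells had 381 and 629. On the scaled libraries these were 183, 240, 17.8 and 32.1 CPM. The share of the largest member differed too. MUC13 took 40.4% of the mucin counts in unirradiated SW1990 cells (interval, 38.8% to 42.1%) and 50.2% in irradiated ones (48.8% to 51.7%), whereas MUC1 took 82.2% (78.0% to 85.7%) and 73.4% (69.9% to 76.8%) in PANC-1 cells. An FPKM (fragments scaled to transcript length and to library size) of at least 1 was reached by 6 mucin genes in unirradiated SW1990 cells, by 7 in irradiated SW1990 cells and by 1, MUC1, in each PANC-1 library.

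**Figure D1:**
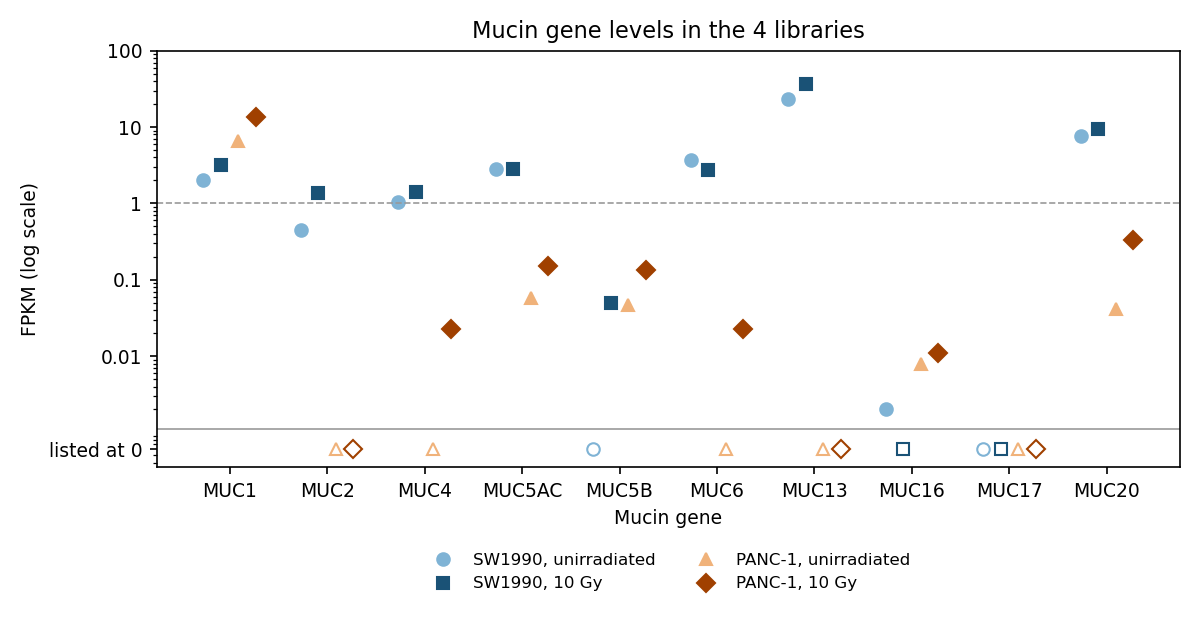
FPKM of each of the 10 mucin genes (log axis), with 1 point per library and open symbols on the lowest line for genes listed at 0. The dashed line marks an FPKM of 1, which MUC1 alone of the 10 passed in PANC-1 cells.

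Among the membrane mucins, MUC13, an epidermal growth factor-like domain mucin of the gastrointestinal surface, had the highest level per length in SW1990 cells. It lies at chr3:124905442-124953819 on the minus strand, and its FPKM was 23.3 without radiation and 36.7 after it, above 85.9% and 92.1% of the genes with a value above 0 in those libraries. Its counts were 1422 and 2278 in SW1990 cells and 0 in both PANC-1 libraries. The lines did not overlap. With PANC-1 set to the floor, the counts were 529-fold higher in SW1990 cells without radiation and 785-fold higher after it. The lower interval limits were 429-fold and 638-fold. The genes that flank MUC13 went the other way, with ITGB5, an integrin subunit 4.02 kb away, at 1475, 1472, 8169 and 7962 counts and HEG1, itself a mucin-like membrane protein 11.9 kb away, at 152, 270, 8421 and 7407 (unirradiated and irradiated SW1990, then unirradiated and irradiated PANC-1; this order is kept in the lists of 4 values that follow).

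MUC1, the membrane mucin of most simple epithelia, whose tail binds β-catenin and GRB2, was the one member with more counts in PANC-1 cells among those at an FPKM of at least 1. It lies at chr1:155185824-155192916 on the minus strand and had 56, 85, 313 and 462 counts, with FPKM values of 2.00, 3.23, 6.61 and 13.7. Both PANC-1 libraries lay above both SW1990 libraries. Without radiation the count ratio was 5.01-fold in favor of PANC-1 (log2 -2.32 for SW1990 over PANC-1, interval -2.76 to -1.91), and after radiation 5.26-fold (log2 -2.39, -2.75 to -2.06). By FPKM these ratios were 3.30-fold and 4.23-fold. MUC1 shares 48 exon bases, 1.02% of its exons, with the gene AL713999.1 on the same strand, which had 62 counts in unirradiated PANC-1 cells and 0 elsewhere.

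MUC4, a large membrane mucin known as a partner of ERBB2, lies at chr3:195746765-195812277 on the minus strand. It had 50, 83, 0 and 10 counts and FPKM values of 1.04, 1.41, 0 and 0.023. With PANC-1 at the floor, SW1990 cells were 18.6-fold higher without radiation (lower interval limit 14.6-fold). After radiation they were 8.58-fold higher (log2 3.10, interval 2.15 to 4.21). By FPKM the latter ratio was 62.6-fold. MUC20, a short membrane mucin that interacts with the MET receptor, is at chr3:195720882-195741123 on the plus strand, so that the 3′ ends of MUC20 and MUC4 face each other across 5.64 kb. Its counts were 279, 420, 4 and 11, and its FPKM values 7.55, 9.31, 0.042 and 0.331. The ratio was 77.8-fold in favor of SW1990 without radiation (log2 6.28, 4.91 to 8.17) and 39.5-fold after it (log2 5.30, 4.45 to 6.32), or 180-fold and 28.1-fold by FPKM.

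The MUC20 counts are uncertain, because 42.8% of its exon bases are also exons of the long noncoding RNA LINC00969 on the same strand, and 16.0% of its windows of 100 bases are found in the pseudogene MUC20P1. In all, 43.7% of the MUC20 windows occur in other genes. LINC00969 had 1974, 2087, 756 and 552 counts, and MUC20P1 149, 194, 2 and 0. PANC-1 cells held 756 and 552 LINC00969 counts where MUC20 had 4 and 11. With MUC20P1 added to MUC20, the log2 ratio of SW1990 over PANC-1 was 6.31 without radiation and 5.85 after it. For MUC17 the share of such windows was 1.17%, all in RN7SKP54, which had 0 counts, and for the other 8 mucins it was 0. Windows that recur within a single transcript made up 32.5% of the windows of MUC1, 19.1% of MUC5B, 16.4% of MUC20, 13.9% of MUC2, 13.1% of MUC4 and 10.5% of MUC5AC, and 0 of MUC6 and MUC13.

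MUC16 and MUC17 were close to or at the limit of detection. MUC16, at chr19:8848844-8981342 on the minus strand, had 2, 0, 10 and 13 counts over 43830 exon bases. Its ratio between unirradiated lines was 4.48-fold in favor of PANC-1, but the interval included no difference (log2 -2.16, -5.39 to 0.07). After radiation PANC-1 cells were 4.19-fold higher with SW1990 at the floor (log2 -2.07, upper interval limit -1.56). MUC17, a membrane mucin of intestinal enterocytes at chr7:101020072-101058745 on the plus strand, had 0 counts in all 4 libraries, which allows at most 3 counts in each. Its neighbor MUC12, another membrane mucin that ends 1.12 kb before MUC17, had 4, 20, 46 and 60.

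The 4 gel-forming mucins lie in one cluster on chromosome 11, in the order MUC6, MUC2, MUC5AC and MUC5B, with gaps of 38.2, 47.4 and 21.9 kb. MUC6, MUC2 and MUC5AC had more counts in SW1990 cells. MUC5B, which did not pass in the fit described later, had more in PANC-1 cells. MUC5AC, the surface mucin of the stomach and airways, is at chr11:1157953-1201138 on the plus strand and had 1079, 1110, 29 and 67 counts, with FPKM values of 2.82, 2.85, 0.057 and 0.153. SW1990 cells were higher by 41.5-fold without radiation (log2 5.38, interval 4.84 to 5.96) and by 17.1-fold after it (log2 4.10, 3.74 to 4.48). MUC6, the mucin of gastric glands, at chr11:1012821-1036706 on the minus strand, had 504, 428, 0 and 5 counts and FPKM values of 3.71, 2.74, 0 and 0.023. With PANC-1 at the floor, SW1990 cells were 187-fold higher without radiation (lower interval limit 152-fold). After radiation they were 88.5-fold higher (log2 6.47, 5.23 to 8.10).

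MUC2, the intestinal goblet cell mucin at chr11:1074875-1110511 on the plus strand, had 126, 113, 0 and 0 counts. With PANC-1 at the floor, SW1990 cells were 46.9-fold higher without radiation (lower interval limit 37.6-fold) and 38.9-fold higher after it (31.2-fold). MUC5B, a mucin of airways and salivary glands at chr11:1223066-1262172 on the plus strand, was the exception of the cluster. It had 0, 20, 25 and 61 counts, although its FPKM stayed under 1 in every library. PANC-1 cells were 7.47-fold higher without radiation, with SW1990 at the floor (log2 -2.90, upper interval limit -2.50). After radiation they were 2.95-fold higher (log2 -1.56, -2.37 to -0.81). An antisense gene, AC061979.1, shares 2.33% of the MUC5B exon bases and had 3, 0, 0 and 12 counts, and the strand setting of the counting is not given. The genes on either side of the cluster were present in both lines. AP2A2, a subunit of the clathrin adaptor 0.576 kb from MUC6, had 1678, 1889, 3250 and 3557 counts, and TOLLIP, an adaptor of Toll-like receptor signaling 12.2 kb from MUC5B, had 432, 637, 1960 and 2144.

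**Figure D2:**
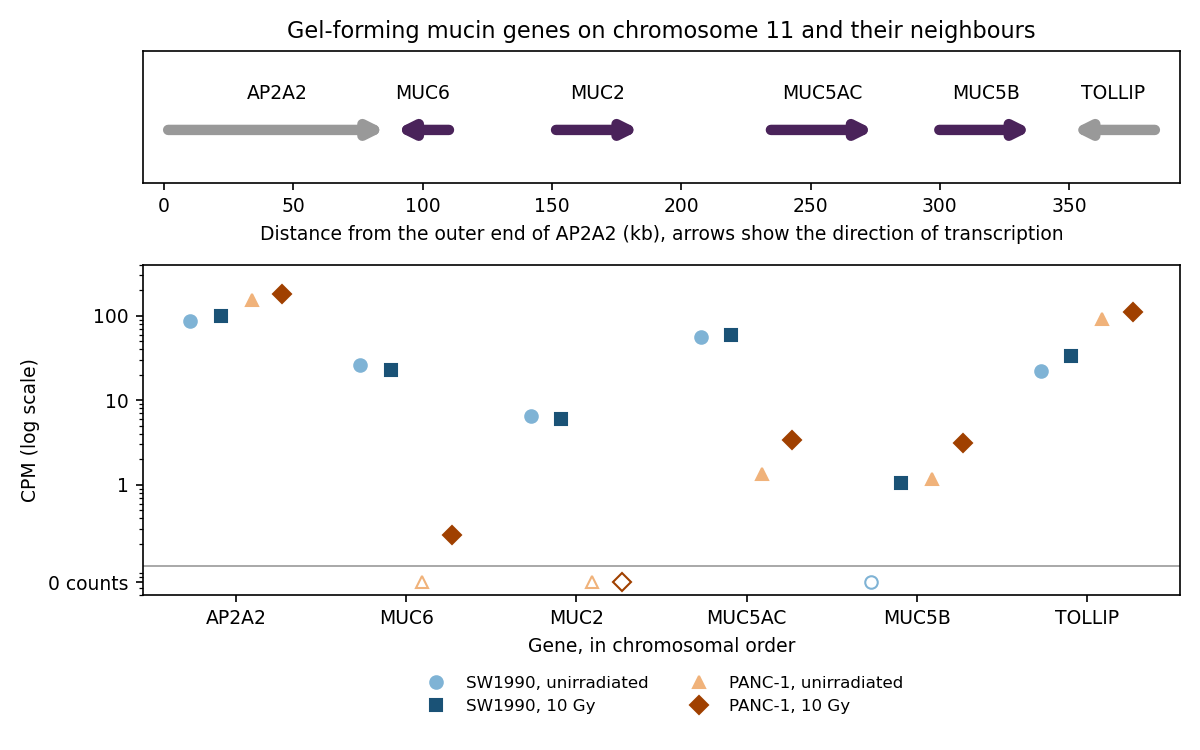
Top, gene positions in the chromosome 11 mucin cluster by distance in kb, with arrows in the direction of transcription. Bottom, CPM of the same genes in the 4 libraries (log axis, open symbols for 0 counts): the mucins MUC6, MUC2 and MUC5AC were higher in SW1990 cells, and MUC5B, AP2A2 and TOLLIP in PANC-1 cells.

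In the order of levels per length, MUC13 and MUC20 came first and second in both SW1990 libraries. MUC6, MUC5AC and MUC1 followed at FPKM values between 2.00 and 3.71. Their order changed with the library and with the scale: by CPM per kb of exons, MUC5AC was at 3.22 and 3.36 and MUC6 at 3.11 and 2.68, while MUC1 was at 0.618 and 0.952. The neighbors in this group are therefore not put in an order. In PANC-1 cells MUC1 was first in both libraries, and MUC5AC, MUC5B and MUC20 followed at 0.042 to 0.331 FPKM. MUC5AC was above MUC5B in both libraries and on both scales, but only at 29 against 25 and 67 against 61 counts. These neighbors are therefore not put in an order either. The place of MUC20 changed with the library by FPKM. By CPM per kb of exons MUC5AC, MUC5B and MUC20 were at 0.0776, 0.0627 and 0.0439 without radiation and 0.196, 0.168 and 0.132 after it.

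Genes were counted if 1 or both libraries reached an FPKM of 1, and a gene was taken as different where the ratio exceeded 2-fold and its interval excluded no difference. Between the unirradiated lines 6 mucins could be examined. Of these, MUC4, MUC5AC, MUC6, MUC13 and MUC20 were higher in SW1990 cells and MUC1 was higher in PANC-1 cells, where 19.0% of 16449 genes were higher in SW1990 and 20.2% in PANC-1. Between the irradiated lines 7 could be examined. MUC2 joined the 5 that were higher in SW1990, and MUC1 was again higher in PANC-1, against 19.1% and 19.8% of 16623 genes. Apart from MUC1, these mucins entered through SW1990 cells only, which favors a difference in that direction. The count thus supports nothing beyond the single values. Under scaling by total counts the median log2 ratio of all genes between the unirradiated lines moved from -0.03 to 0.20, and no mucin changed its direction.

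A fit over the 4 libraries, with line and radiation as additive terms (edgeR quasi-likelihood test, Benjamini-Hochberg adjustment over 18180 genes), took the difference of the lines' radiation responses as its spread, with 1 residual degree of freedom. The spread of each gene was moderated toward that of all genes, so that a p-value does not rest on the gene's own difference alone. MUC2 and MUC13, at 0 counts in both PANC-1 libraries, gave no PANC-1 response to compare. The fit kept 8 of the 10 mucins, without MUC16 and MUC17. In this fit 6 were higher in SW1990 and 1 in PANC-1, with 21.4% and 22.2% of all genes called in these directions. MUC2, MUC4, MUC6, MUC13 and MUC20, with few or no counts in PANC-1 cells, entered the fit through SW1990 cells. This count thus supports nothing beyond the single values. MUC13 had an adjusted p of 0.000898, MUC20 of 0.00145, MUC5AC of 0.00187, MUC6 of 0.00328, MUC1 of 0.00364, MUC2 of 0.00434 and MUC4 of 0.0269 (edgeR quasi-likelihood, Benjamini-Hochberg). The fitted difference was log2 4.68 ± 0.38 (SE) for MUC5AC, 5.67 ± 0.41 for MUC20 and -2.35 ± 0.25 for MUC1. MUC5B did not pass (adjusted p = 0.102, edgeR quasi-likelihood with Benjamini-Hochberg adjustment). Fitted folds of MUC2, MUC4, MUC5B, MUC6 and MUC13 are not given, since at least 1 library was at 0 counts. With bulk RNA, fewer cells with a transcript and less transcript per cell cannot be told apart.

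**Figure D3:**
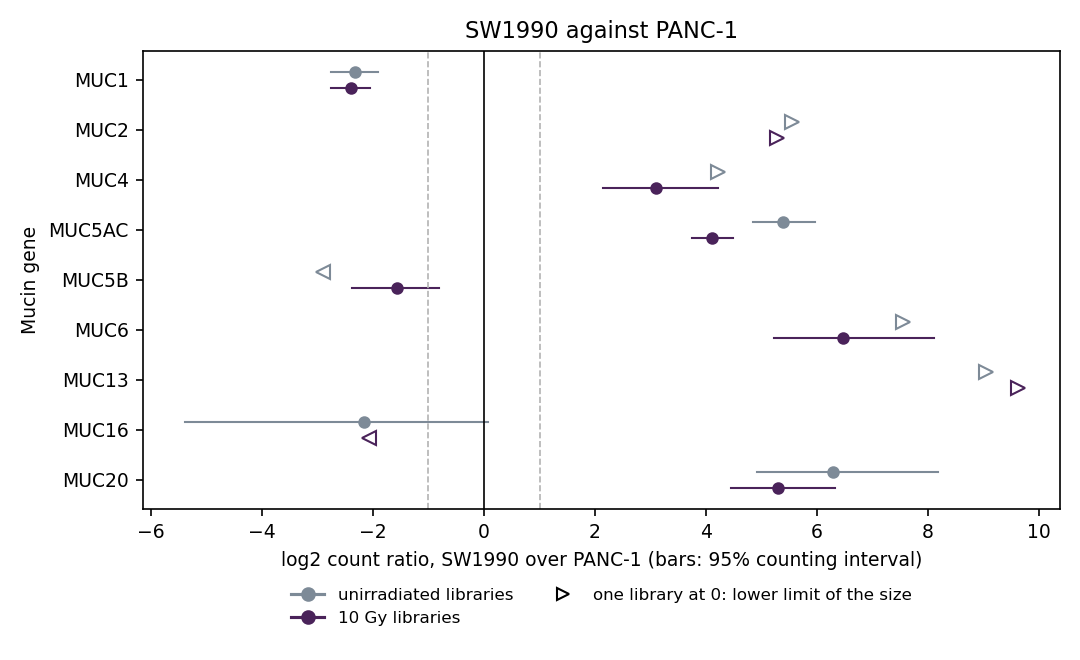
log2 count ratio of SW1990 over PANC-1 for each mucin with more than 3 counts in a library (unirradiated pair in gray, 10 Gy pair in purple). Bars are 95% counting intervals. Open arrowheads are ratios with the library at 0 set to the floor of 3 counts, without counting error. MUC1, MUC5B and MUC16 lie left of 0 and the other 6 right of it, and dashed lines mark 2-fold.

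After radiation no mucin passed the 2-fold limit in either line among the genes examined. In SW1990 cells 0 of 7 mucins passed, with 6.45% of 15534 genes past the limit in either direction. MUC13 had 74.0 CPM without radiation and 120 after it (log2 0.70, interval 0.60 to 0.80). MUC20 had 14.5 and 22.2 CPM (log2 0.61, 0.39 to 0.83), MUC1 2.92 and 4.49 (log2 0.62, 0.12 to 1.14) and MUC4 2.60 and 4.38 (log2 0.75, 0.23 to 1.29). At a 1.5-fold limit these 4 membrane mucins passed as higher, where 8.07% of the genes did. Under scaling by total counts MUC1 was at log2 0.57 and MUC20 at 0.55, which is below that limit. MUC20 did not reach that limit with MUC20P1 added (1.46-fold, 1.28 to 1.65), and by FPKM MUC20 was at 1.23-fold and MUC4 at 1.36-fold.

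Of the secreted mucins in SW1990 cells, MUC5AC had 56.2 and 58.6 CPM (log2 0.06, -0.06 to 0.18), MUC6 26.2 and 22.6 CPM (log2 -0.22, -0.40 to -0.03) and MUC2 6.56 and 5.97 CPM (log2 -0.14, -0.52 to 0.24). For MUC2 the FPKM values went the other way, from 0.452 to 1.36, a 3.01-fold difference with fewer counts in the higher library. MUC5B was the only member to appear, at 0 counts without radiation and 20 after it. Its ratio was 6.76-fold with the 0 set to the floor (lower interval limit 5.01-fold). Without the FPKM filter it passed the 2-fold limit, as did 6.16% of 21629 genes in that direction. The sum of all 10 was 1.31-fold higher after radiation (1.25 to 1.37), and 1.09-fold (1.03 to 1.16) with MUC13 left out.

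In PANC-1 cells MUC1 was the single one of the 10 mucins with an FPKM of at least 1. It went from 14.6 to 23.6 CPM, a 1.62-fold difference (log2 0.69, 0.48 to 0.90) that stayed under 2-fold, so that 0 of 1 passed, with 6.59% of 15030 genes past the limit. At a 1.5-fold limit it passed, as did 8.35% of the genes in the same direction. By FPKM the same pair was 6.61 and 13.7, a 2.07-fold difference. The log2 radiation ratios of MUC1 in the lines differed by -0.07 (SW1990 minus PANC-1, interval -0.60 to 0.46, counting error only). Variation between replicates is not in this interval, so that it sets no limit on the difference.

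Of the mucins at low level in PANC-1 cells, MUC5AC went from 29 to 67 counts in these libraries (2.53-fold, log2 1.34, interval 0.69 to 2.02). MUC5B went from 25 to 61 (2.67-fold, log2 1.42, 0.72 to 2.15). MUC4 went from 0 to 10, a ratio of 3.65-fold with the 0 set to the floor (lower interval limit 2.45-fold). These 3 passed the 2-fold limit without the FPKM filter, where 6.56% of 21428 genes passed as higher. MUC20 had 4 and 11 counts (log2 1.59, -0.17 to 3.70), MUC16 10 and 13 (log2 0.51, -0.79 to 1.86) and MUC6 0 and 5. Only the first 3 of these 6 passed, and the intervals of MUC20 and MUC16 included no difference. With MUC20P1 added, the MUC20 counts were 6 and 11, a 2.01-fold ratio (0.68 to 6.61) in place of 3.01-fold, and by FPKM the ratio was 7.88-fold. Among the 6398 genes with an FPKM under 1 in both PANC-1 libraries, 57.3% were higher after radiation, with a median log2 ratio of 0.18. The low mucins together, with MUC1 left out, summed to 68 and 167 counts.

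For MUC5AC the radiation ratio differed between the lines by -1.28 on the log2 scale (SW1990 minus PANC-1, interval -1.92 to -0.64, counting error only). For MUC20 the difference was -0.98 (-2.64 to 0.69). No test of this difference was possible, because a fit with separate responses leaves no residual degrees of freedom.

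In the 4-library fit 0 of 8 mucins passed for radiation (edgeR quasi-likelihood, Benjamini-Hochberg), as did 0% of all 18180 genes, with adjusted p between 0.936 and 0.989. At an unadjusted p under 0.05, 833 genes (4.58%) passed, among them MUC1 at log2 0.66 ± 0.25 and MUC13, which rests on SW1990 cells alone. The log2 value of the edgeR fit was 0.55 for MUC5AC and 0.84 for MUC20. DESeq2 called 39 genes, none of them a mucin. Of the mucins, it gave an adjusted p to MUC5AC and MUC13 only, so that the others could not be called.

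**Figure D4:**
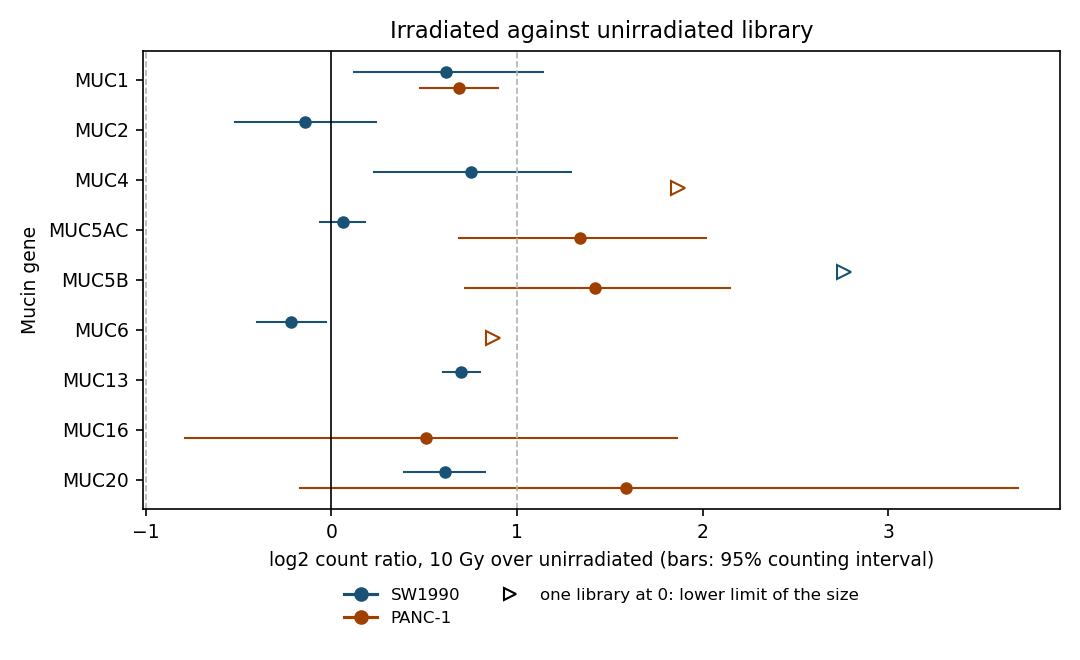
log2 count ratio of the 10 Gy over the unirradiated library for each mucin with more than 3 counts, SW1990 in blue and PANC-1 in brown. Bars are 95% counting intervals. Open arrowheads are ratios with an unirradiated library at 0 set to the floor of 3 counts, without counting error. The tested mucins lie inside the dashed 2-fold lines, and MUC4, MUC5AC, MUC5B and MUC20 in PANC-1 and MUC5B in SW1990, all at low level, lie beyond them.

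The genes that build and regulate mucins were examined in hand-made lists. The list of transcription factors of mucin-secreting epithelium, which also holds the splicing regulator ESRP1, had 22 genes, of which 18 could be compared between the unirradiated lines, and 13, ESRP1 among them, were higher in SW1990 and 4 in PANC-1, with a median log2 ratio of 5.99 against -0.03 for all genes. Most of them entered through SW1990 cells only, so that this median supports nothing beyond the single values. The shares of all genes higher in SW1990 and in PANC-1 were 19.0% and 20.2% in that pair, and they were 21.4% and 22.2% in the fit, for this and the following lists. In the 4-library fit 14 of 20 passed as higher in SW1990 and 3 as higher in PANC-1 (edgeR quasi-likelihood, Benjamini-Hochberg). The same limit holds for this count and for genes of the following lists with few counts in either line. CDX2, an intestinal homeobox factor that binds the MUC2 promoter, had 3732, 3045, 4 and 10 counts, and CDX1 had 111, 75, 0 and 0. KLF5, a factor of proliferating gut epithelium, had 4147, 4519, 77 and 66, and the ETS factors of epithelia ELF3 and EHF had 1361, 1920, 71 and 145 and 2152, 1508, 0 and 0. HNF4A and GRHL2, named here after their values were seen, were at 498 and 501, and 1803 and 1910 counts in SW1990 cells and at 0 in both PANC-1 libraries.

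Not all factors followed this direction. GATA4 had 0, 9, 357 and 288 counts and FOXA2, a factor of endodermal organs, 40, 31, 644 and 682, while FOXA1 had 1780, 1485, 12 and 22 (these 3 were also named after their values were seen). KLF4 had 259, 364, 899 and 485 counts. XBP1, which widens the secretory apparatus, had 1056, 1864, 1714 and 1471 and did not pass between the lines (log2 -0.07, adjusted p = 0.846, edgeR quasi-likelihood with Benjamini-Hochberg adjustment). SPDEF, the goblet cell factor, was at 11, 11, 4 and 6 counts, and ATOH1, which commits intestinal cells to the secretory fate, at 2, 0, 0 and 0.

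Mucin O-glycans start with GALNT enzymes, which attach the first sugar. Of 20 initiation genes 13 entered the fit, with 4 higher in SW1990 and 7 in PANC-1 (21.4% and 22.2% of all genes). The lines differed by isoenzyme: GALNT3 had 997, 1033, 0 and 4 counts and GALNT12 423, 597, 33 and 40, whereas GALNT2 had 1635, 1722, 11200 and 11300 and GALNT10 1067, 1172, 5327 and 5956. GALNT5 passed as higher after radiation in SW1990 cells, at 211 and 487 counts (log2 1.23, 0.99 to 1.47), and GALNT4 in PANC-1 cells, at 78 and 212 (log2 1.57, 1.19 to 1.97). GALNT4 entered only through the irradiated library, where its FPKM was 1.57 against 0.498. These were 1 of 10 initiation genes examined in SW1990 and 1 of 8 in PANC-1, beside 6.45% and 6.59% of all genes.

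Extension and capping of the chains follow. Of 22 genes 18 entered the fit, with 10 higher in SW1990 and 4 in PANC-1. Between the unirradiated lines the median log2 ratio of the 14 compared was 0.37. FUT3, the Lewis fucosyltransferase that makes the CA19-9 epitope, had 729, 667, 7 and 4 counts, and FUT2, the secretor fucosyltransferase (named after its values were seen), 146, 224, 0 and 0. The sulfotransferase GAL3ST2 had 515, 555, 10 and 10. The sialyltransferase ST3GAL4 was higher in PANC-1 cells, at 151, 216, 797 and 986. C1GALT1C1, the chaperone that core 1 synthase needs to extend the first sugar, had 58 and 400 counts in SW1990 cells (log2 2.81, 2.41 to 3.23) and 42 and 41 in PANC-1 cells (log2 0.10, -0.56 to 0.75). ST6GALNAC2, which adds sialic acid to short chains, was past the 2-fold limit after radiation in both lines, at 71 and 156 counts in SW1990 (log2 1.16, 0.74 to 1.58) and 18 and 77 in PANC-1 (log2 2.23, 1.47 to 3.06). By FPKM it was at 4.25 and 5.67 in SW1990 cells, a log2 difference of 0.42, and in PANC-1 cells it entered only through the irradiated library, at 0.415 and 1.87. In this list 2 of 13 genes passed after radiation in SW1990 and 1 of 9 in PANC-1, beside 6.45% and 6.59% of all genes.

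Of 17 genes for proteins secreted with mucins or needed to fold them, 9 entered the fit, 2 higher in SW1990 and 2 in PANC-1. AGR2, a disulfide isomerase required for mucin folding, was abundant in both lines at 886, 1081, 2140 and 2249 counts, although PANC-1 cells held few mucin transcripts. ERN2, the stress sensor of mucus-secreting cells, followed the mucins with 632, 765, 1 and 0, as did TFF3, the intestinal trefoil peptide, with 49, 97, 2 and 0. TFF3 was just past the 2-fold limit after radiation in SW1990 cells (log2 1.01, 0.50 to 1.53). Under total counts the median log2 ratio of all genes in this pair moved from 0.022 to -0.035, more than the margin of this call. KIAA1324 passed there too, at 8 and 55 counts, although it entered only through the irradiated library (FPKM 0.144 and 1.10). In this list 2 of 7 genes passed in SW1990 and 0 of 4 in PANC-1, beside 6.45% and 6.59% of all genes.

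The partners of membrane mucins showed no common direction. Of 18 genes 16 entered the fit, with 5 higher in SW1990 and 4 in PANC-1, and their median log2 ratio between the unirradiated lines was 0.15. MSLN, the mesothelin that binds MUC16, had 500, 795, 6 and 33 counts, against 2, 0, 10 and 13 for MUC16 itself. LGALS3, a galectin that binds MUC1, had 5190, 4984, 1081 and 810, and LGALS1 83, 108, 10313 and 9680. EGFR had 1577, 3596, 31834 and 21610 counts, and ERBB3 1820, 2048, 53 and 75. After radiation EGFR passed as higher in SW1990 cells (log2 1.21). GRB2, the adaptor bound by the MUC1 tail, passed there as lower (1755 and 722 counts, log2 -1.26, -1.39 to -1.13). In PANC-1 cells GRB2 was lower too, but within the 2-fold limit (1736 and 957 counts, log2 -0.73, -0.84 to -0.61). The calls were 1 higher and 1 lower of 16 genes examined in SW1990 and 0 of 15 in PANC-1, beside 6.45% and 6.59% of all genes. By FPKM, EGFR was at 17.1 and 21.4 in SW1990 cells, a log2 difference of 0.32.

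A hand-made list of other mucins and of genes grouped with them held 13 genes, not all of them mucins. In the fit 2 of 6 were higher in SW1990, OVGP1 and MUC19, and 3 in PANC-1, MUC12, MCAM and CD164. MUC3A, next to MUC12 on chromosome 7 at a gap of 1.28 kb, had 49, 71, 31 and 42 counts and did not pass (adjusted p = 0.151, edgeR quasi-likelihood with Benjamini-Hochberg adjustment). CD164, a small sialomucin of many cell types, had 2458, 2548, 7045 and 5828 counts, more than the 10 mucins together in PANC-1 cells. MUC15 had 0, 2, 16 and 4 counts and MUC19 13, 22, 0 and 0. For radiation, 0 genes of any list passed in the 4-library fit.

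**Figure D5:**
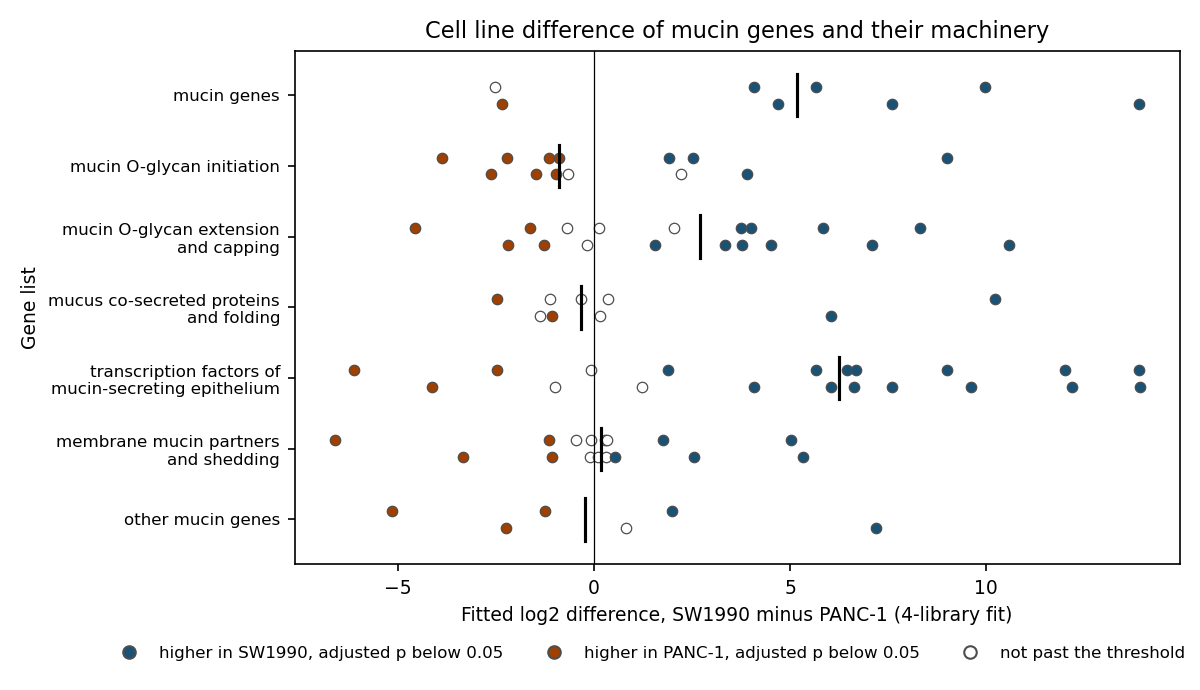
Fitted log2 difference of SW1990 minus PANC-1 in the 4-library fit for each gene of the mucins and of 6 related lists that entered the fit, with filled points past an adjusted p of 0.05 (edgeR quasi-likelihood, Benjamini-Hochberg) and black bars at list medians. Values of genes with a library at 0 counts depend on the prior count of the fit and mark only their direction.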

How the data were processed

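RNA of 4 libraries, SW1990 and PANC-1 cells without radiation and after 10 Gy, was analysed with 1 library per group, so that no group has replicates. The authors deposited, in 1 table of 59263 rows, a read count per gene, not normalized, and an FPKM value per gene and library. The submitters' processing notes name CASAVA 1.8, FastQC 0.11.2, Trimmomatic 0.36, HISAT2 2.0, StringTie 1.3.3b, DESeq2 1.12.4 and GRCh38. The counting tool, its strand setting and the read length are not given in the sources used here. The methods describe an mRNA kit and the sample records removal of ribosomal RNA. Rows without a gene identifier (1089, between 0.453% and 0.635% of the counts) entered neither library sizes nor tests. Of 57836 identifiers in GENCODE 29, 96.8% had the same coordinates, and all 10 mucins did.

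Pairs of libraries were compared by TMM-scaled count ratios with exact Clopper-Pearson intervals (95%), for genes that reached an FPKM of 1 and more than 3 counts in 1 or both libraries. A gene at 0 was set to the floor of 3 counts. Ratios of FPKM, where given, are of the deposited values. For the difference of 2 radiation ratios the interval is a normal approximation on the log scale. The additive fit used edgeR 4.0.16 (R 4.3.3), with limma 3.58.1 and DESeq2 1.42.0 as alternatives, and the common biological coefficient of variation was 0.218. The procedures were tested on simulated data. Sequences were read from RefSeq tables and windows of 100 bases from the GENCODE 29 transcripts. Library scaling, filters, fold limits, the use of FPKM and the fitting tool were varied. Rows without a gene identifier kept in the library sizes and MUC20 with MUC20P1 summed were added after seeing the data.

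The mucins and gene lists were chosen with earlier results of these data known. Named are all 10 mucins, other mucin genes with at least 10 counts in a library, up to 4 genes of each list by FPKM and 2 by ratio in 3 of the comparisons, and overlapping and neighboring genes, with exceptions stated. SPDEF, ATOH1, ESRP1, INS, GCG and PNLIP were also named outside this rule. Some genes of the lists are not reported here. Not every gene so named is described. The authors' exosomal miRNA data were not analysed here.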

Additional observations from a re-analysis of the deposited data

Results flagged for a closer look

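Among the genes named by the rule that reached an FPKM of 1 in 1 or both libraries of each line, 4 genes of the lists moved in opposite directions after radiation, by at least 1.5-fold in 1 of them and with both counting intervals clear of no difference. These differences between the lines were not tested, since each group is 1 library. ST3GAL2, a sialyltransferase of O-glycans, had log2 ratios of -0.61 in SW1990 and 0.43 in PANC-1. KLF4, an epithelial transcription factor, had 0.51 and -0.76. EGFR had 1.21 and -0.43. ZEB1, a repressor of epithelial genes, had 2.26 and -0.23, but its FPKM in PANC-1 was the same in both libraries, at 17.4, and in SW1990 it reached an FPKM of 1 only after radiation (0.314 and 1.33).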

How the results depend on the processing

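No analysis paired by replicate number was possible because the labels give none. The 4-library fit, with line as a term, compares radiation within each line. With 1 library per group, none could be left out of a pair. Between the lines, the mucins called stayed the same under total counts, DESeq2 size factors, FPKM ratios, a 1.5-fold limit, the q-value rule and rows without a gene identifier kept in the library sizes. Without the filter on low values 8 were called without radiation, 6 higher in SW1990 and 2 in PANC-1, and 9 after it, 6 and 3. With an FPKM of at least 5 required, 3 were called without and 3 after radiation, since fewer genes were examined. For radiation, the count in SW1990 cells was 1 by FPKM ratio (MUC2), 4 at a 1.5-fold limit and 1 without the filter on low values, and in PANC-1 cells it was 1 by FPKM ratio and 1 at 1.5-fold (MUC1) and 3 without the filter. The cause of the disagreement between counts and FPKM was not tested. In the 4-library fit the line count stayed at 7 in each alternative except the fit without a filter on low counts, where MUC4 did not pass (adjusted p = 0.0553, edgeR quasi-likelihood), which left 6. The radiation count stayed at 0 in each, although DESeq2 gave an adjusted p to MUC5AC and MUC13 only. Depth limits MUC16, MUC17 and the low PANC-1 mucins, where a few counts decide a ratio, and the single library per group limits every comparison.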
